A study of Rattus norvegicus with 6 samples.

Results

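Adenylyl cyclases are the enzymes that make cyclic AMP from ATP, and 8 of their genes (Adcy1, Adcy2, Adcy3, Adcy5, Adcy6, Adcy7, Adcy8 and Adcy9) were followed through single nuclei of the rat nucleus accumbens, a ventral striatal region that takes part in reward. The 8 genes were chosen by symbol from the 25629 genes of the count tables. The rats were Sprague-Dawley, 90 to 120 days old, and every one had self-administered heroin on fixed ratio schedules with a progressive ratio test near the end. After the last session they were given saline or naloxone, an opioid receptor antagonist, and tissue was taken 1 hour later. Tissue of 12 rats was combined into 6 libraries, 3 of saline and 3 of naloxone rats, each pooling males and females. Both groups carry the heroin history, and no rats without heroin were analysed here.

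Membrane adenylyl cyclases are switched on by stimulatory G proteins and, for some isoforms, inhibited through the Gi and Go proteins that opioid receptors use. Adcy5 and Adcy6 are best known for inhibition by Gi and by calcium, Adcy1 and Adcy8 for stimulation by calcium and calmodulin, Adcy2 and Adcy7 for stimulation by G protein beta-gamma subunits, and Adcy9 for its weak response to forskolin. Adcy5 is known as the major cyclase of striatal spiny neurons, in which dopamine D1 receptors raise cyclic AMP and D2 and mu opioid receptors lower it.

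The libraries held 64260 barcodes (the labels state 44592 nuclei) and 55739350 to 76272798 unique molecular identifiers (UMIs, 1 for each captured RNA molecule). Of 58960 nuclei used, 38737 (65.7%) fell into 13 classes named from marker genes, 5418 into mixed and 14301 into unnamed clusters, and the rest into small named classes that were not tested. The median depth was 4278 to 6509 UMIs per nucleus by library, and 463 of 63796 barcode sequences (0.726%) occurred in more than 1 library. Levels are counts per 1000000 UMIs of a class in a library (CPM), given as mean ± SD of the 6 libraries. Of the marker genes that helped to name the classes, Drd2 stood at 555 ± 28.6 CPM in Drd2-like and 5.43 ± 1.41 CPM in Drd1-like neurons, and Drd1 at 3.90 ± 0.903 and 31.2 ± 4.29 CPM.

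Adcy2 and Adcy5 are the 2 genes on which the spiny neuron results turn, and the sequences at their starts are shown first. The windows run from 250 bases before to 50 bases after the RefSeq gene start in build GRCr8, chr1:36203804-36204103 on the plus strand for Adcy2 and chr11:79123294-79123593 on the minus strand for Adcy5. Capitals mark each GGGCGG or its reverse complement CCGCCC, the core of the GC box that Sp-family factors bind.
Adcy2: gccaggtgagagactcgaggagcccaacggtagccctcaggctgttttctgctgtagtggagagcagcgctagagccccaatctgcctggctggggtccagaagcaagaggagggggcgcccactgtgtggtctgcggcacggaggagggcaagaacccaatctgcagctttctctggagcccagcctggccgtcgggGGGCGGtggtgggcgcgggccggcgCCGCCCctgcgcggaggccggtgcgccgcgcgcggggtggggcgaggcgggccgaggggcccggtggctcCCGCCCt
Adcy5: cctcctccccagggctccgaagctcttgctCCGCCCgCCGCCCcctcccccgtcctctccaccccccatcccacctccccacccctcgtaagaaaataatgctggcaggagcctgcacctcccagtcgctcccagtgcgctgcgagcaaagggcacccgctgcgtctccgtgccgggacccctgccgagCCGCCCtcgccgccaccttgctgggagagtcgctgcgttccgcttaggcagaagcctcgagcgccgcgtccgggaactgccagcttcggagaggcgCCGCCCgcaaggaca
Of the 8 genes 5 had a window (Adcy1, Adcy2, Adcy5, Adcy7 and Adcy9). These letters occurred 3 times in the Adcy2, 4 times in the Adcy5 and 7 times in the Adcy1 window and 0 times in those of Adcy7 and Adcy9, thus at least once in 3 of the 5 and in 33.1% of 33469 windows of the same length. The full cyclic AMP response element TGACGTCA, which reads the same on both strands, was in 0 of the 5 and in 1.83% of all windows. Its shorter form TGACG or CGTCA was in 2 of the 5, those of Adcy7 and Adcy9, and in 21.2% of all windows.

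The leading cyclase differed among the classes. By UMIs, Adcy5 led in Drd1-like and Drd2-like spiny neurons and in oligodendrocyte-like and endothelial-like nuclei. Adcy2 led in Chst9-like neurons, counted with the spiny classes by name, and, with Adcy5 nearly level, in eccentric-like spiny neurons. It also led in cholinergic-like and somatostatin-like interneurons, astrocyte-like nuclei, oligodendrocyte precursor-like (OPC-like) nuclei and committed precursor-like nuclei. Adcy8 led in Pthlh Pvalb-like interneurons and Adcy9 in microglia-like nuclei. Levels in 12 pairs of classes were compared within libraries by two-sided exact sign-flip permutation tests over the 6 libraries, 96 tests whose smallest possible p is 0.0313. Of these, 72 had the same sign in all 6 libraries and an adjusted p of 0.0417 (Benjamini-Hochberg over the 96) and were called. Both class sums come from the same libraries, and the labels name pools of rats as the samples, so the p-values measure the spread between pools.

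**Figure D1:**
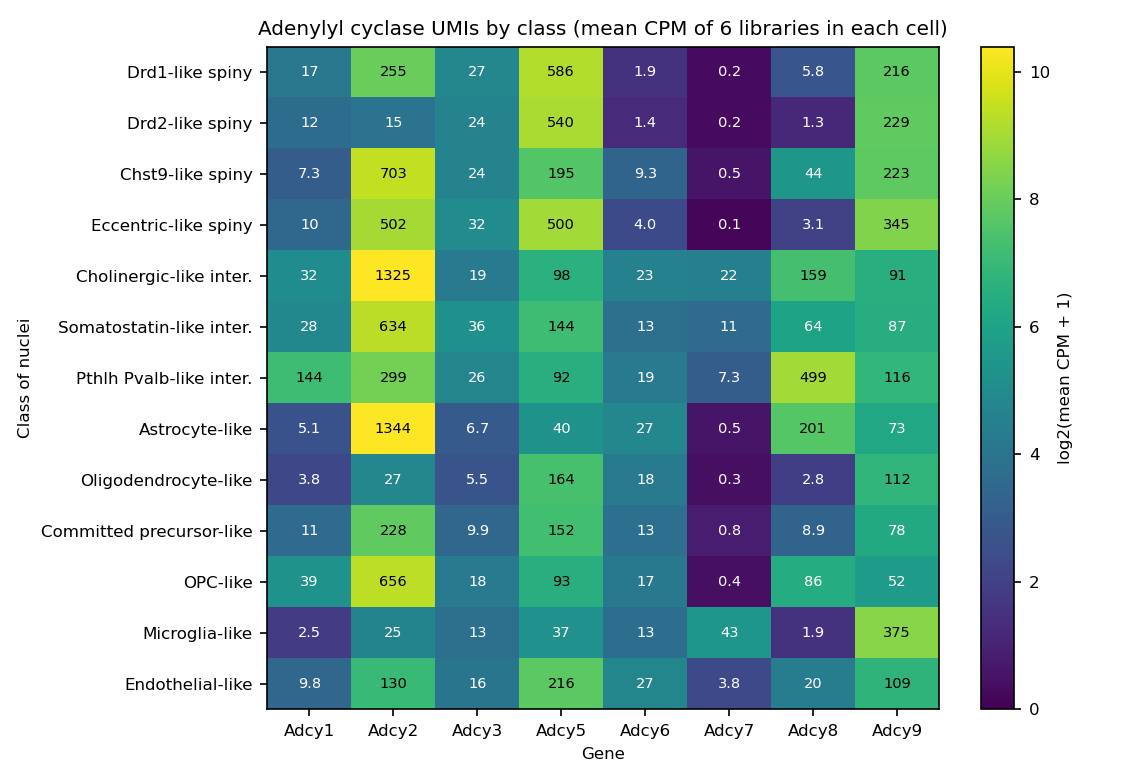
Mean CPM of 6 libraries for each of the 8 genes (columns) in each of the 13 classes (rows), with the colour giving log2 of the mean CPM plus 1. Adcy2 ran from 14.8 CPM in Drd2-like neurons to 1344 CPM in astrocyte-like nuclei, and Adcy5 from 37.4 CPM in microglia-like nuclei to 586 CPM in Drd1-like neurons.

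Of the Gi-inhibited isoforms, Adcy5 was highest in Drd1-like neurons, with 569, 593 and 576 CPM in the saline libraries and 557, 620.3 and 600.4 CPM in the naloxone libraries. Drd2-like neurons had 536, 543 and 516 CPM in the saline libraries and 528, 575 and 545 CPM in the naloxone libraries. The ranges of the classes overlapped, but within each library Drd1-like neurons were higher, 586 ± 23.1 against 540.4 ± 19.8 CPM (1.08-fold, exact p = 0.0313, adjusted 0.0417). Between these classes 6 of the 8 genes were called, Adcy9 higher in Drd2-like and the other 5 in Drd1-like neurons, beside 24.4% of 13083 genes at 1 CPM or more. The Adcy5 step depended on how nuclei were assigned: with each nucleus gated by its own marker UMIs the means were 509.8 and 548 CPM, in the other order (adjusted exact p = 0.0821).

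Eccentric-like neurons, a spiny type marked by Casz1 and Otof, had 500.3 ± 45.5 CPM of Adcy5, below Drd1-like neurons in 6 of 6 libraries (5 of the 8 genes called beside 34.4% of all genes). Chst9-like neurons, marked by Chst9, Grm8 and the mu opioid receptor gene Oprm1, are counted among the spiny classes by name only. A list of 5 general spiny markers summed to 934 to 1000 CPM in the saline libraries of this class. That lay below the 3973 to 4293 CPM of Drd1-like neurons and the 1327 to 1420 CPM of Pthlh Pvalb-like interneurons. Adcy5 in Chst9-like neurons had 184, 211 and 189.6 CPM in the saline libraries and 192, 206 and 190.1 CPM in the naloxone libraries. All of these lay below every library of the other 3 spiny classes. Drd1-like neurons exceeded Chst9-like neurons 3.0-fold and Drd2-like neurons did so 2.76-fold (exact p = 0.0313 each), where 6 and 5 of the 8 genes were called beside 55.0% and 54.3% of all genes. At a coarser clustering the folds were 1.72 and 1.65, when the Chst9-like class held 5508 in place of 3553 nuclei, all 1819 eccentric-like nuclei among them. Oprm1 itself, which helped to name the class, averaged 266 ± 10.5 CPM in Chst9-like, 104 ± 13.2 in eccentric-like, 45.1 ± 4.06 in Drd1-like and 35.0 ± 12.1 in Drd2-like neurons. Of these classes the one with the most Oprm1 had the least Adcy5, but it also had the lowest sum of general spiny markers. A link between Oprm1 and Adcy5 was not tested.

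Interneurons held less Adcy5. It averaged 144 ± 23.5 CPM in somatostatin-like, 98.2 ± 18.5 in cholinergic-like and 91.6 ± 10.1 in Pthlh Pvalb-like neurons, and Drd1-like neurons were 4.07-, 5.97- and 6.40-fold higher, in 6 of 6 libraries each. In the first and second of these comparisons 6 and 7 of the 8 genes were called, beside 37.9% and 39.8% of all genes. The cholinergic-like and Pthlh Pvalb-like levels did not differ beyond the SD.

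**Figure D2:**
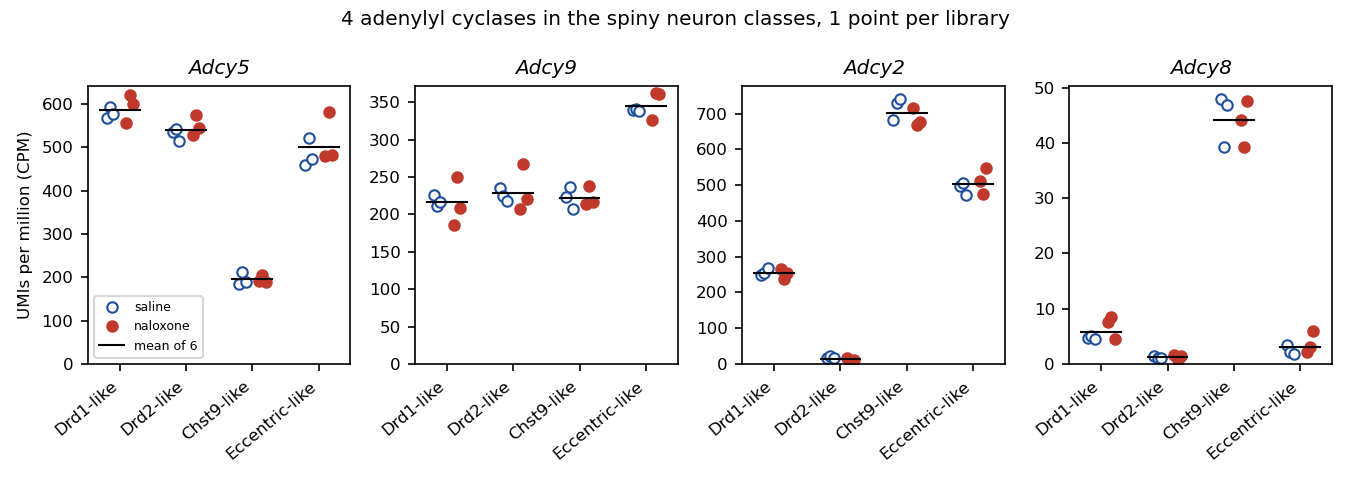
CPM of 4 cyclase genes in the 4 classes named as spiny neurons, 1 point for each library (open, saline; filled, naloxone), with a line at the mean of 6 libraries. Adcy2 separates all 4 classes without overlap, from 14.8 CPM in Drd2-like to 703 CPM in Chst9-like neurons, while saline and naloxone points of Adcy5 overlap in every class.

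Glial and vascular nuclei also gave Adcy5 UMIs. Oligodendrocyte-like nuclei had 164 ± 19 CPM, which is 27.9% ± 2.97 of the Drd1-like level. Neuronal RNA can enter droplets of other nuclei, and 3 neuronal genes were set beside it: Rbfox3 stood at 2.39%, Snap25 at 10.1% and Syt1 at 5.34% of their Drd1-like levels, all below Adcy5. The general spiny markers summed to 655 to 727 CPM in the saline libraries of oligodendrocyte-like nuclei, against 3973 to 4293 CPM in Drd1-like neurons. The part of spiny neuron RNA in the Adcy5 value was not tested. In the other classes Adcy5 lay within or below the span of the 3 genes. It stood at 6.76% ± 1.30 in astrocyte-like nuclei (3.60% to 7.55% for the 3 genes), at 15.8% ± 1.86 in OPC-like nuclei (12.7% to 39.6%), at 26.0% ± 12.4 in committed precursor-like nuclei (18.7% to 28.4%), at 6.30% ± 3.39 in microglia-like nuclei (3.23% to 12.3%) and at 36.4% ± 15.7 in endothelial-like nuclei (46.6% to 54.7%). Oligodendrocyte-like nuclei exceeded astrocyte-like nuclei 4.11-fold and OPC-like nuclei 1.77-fold in Adcy5, in 6 of 6 libraries (5 and 6 of the 8 genes called, beside 58.0% and 54.6% of all genes).

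**Figure D3:**
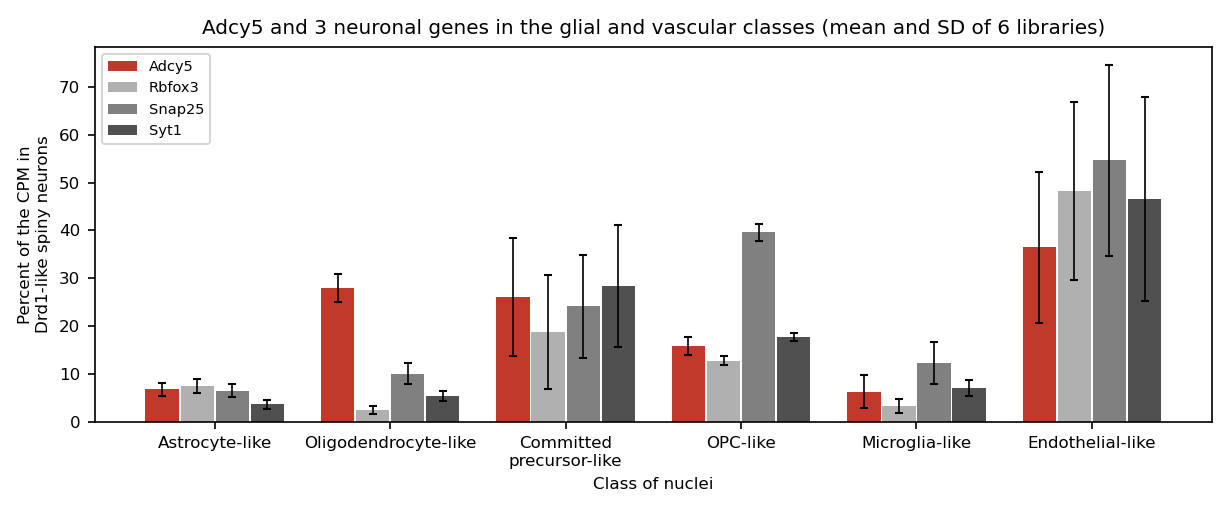
CPM of Adcy5 and of the neuronal genes Rbfox3, Snap25 and Syt1 in 6 glial and vascular classes, as a percentage of the CPM in Drd1-like spiny neurons; bars are means and error bars SDs of 6 libraries. Adcy5 stands above the 3 genes in oligodendrocyte-like nuclei (27.9%) and below them in endothelial-like nuclei (36.4%).

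Adcy6, the closest relative of Adcy5, was scarce in spiny neurons. It had 1.85 ± 0.442 CPM in Drd1-like and 1.41 ± 0.482 CPM in Drd2-like neurons (146 and 64 UMIs in all), a difference that was not called (exact p = 0.188). With gated nuclei it was called, at 4.78 and 1.69 CPM (2.84-fold, 6 of 6 libraries, adjusted exact p = 0.0444). Chst9-like neurons had 9.31 ± 1.65 CPM, astrocyte-like nuclei 27.2 ± 2.59 CPM and oligodendrocyte-like nuclei 18.0 ± 1.74 CPM, each above Drd1-like neurons in 6 of 6 libraries. With gated nuclei the excess in Chst9-like neurons went from 5.02- to 2.13-fold, in astrocyte-like nuclei from 14.7- to 5.67-fold and in oligodendrocyte-like nuclei from 9.72- to 3.44-fold. At the coarser clustering these were 2.34-, 8.98- and 5.47-fold.

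Adcy2, stimulated by beta-gamma subunits, gave the widest contrast between the main spiny classes. Drd1-like neurons had 249, 253 and 268 CPM in the saline libraries and 266, 238 and 255 CPM in the naloxone libraries. Drd2-like neurons had 15.7, 21.8 and 15.3 CPM in the saline libraries and 15.6, 9.14 and 11.0 CPM in the naloxone libraries. No library of one class came near any library of the other, 255 ± 11.2 against 14.8 ± 4.4 CPM (17.3-fold, exact p = 0.0313, adjusted 0.0417), and with gated nuclei the ratio was 8.05-fold. The same was seen in shares of nuclei. With each nucleus thinned to 1000 UMIs, 20.8% ± 0.956 of Drd1-like and 1.23% ± 0.366 of Drd2-like nuclei had an Adcy2 UMI, the latter below the 2.53% ± 0.636 of oligodendrocyte-like nuclei. Without thinning the shares were 75.2% and 7.90% at median depths of 9021 and 8382.5 UMIs.

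Chst9-like neurons had more Adcy2 than Drd1-like neurons, with 683, 731 and 741 CPM in the saline libraries and 716, 668 and 678 CPM in the naloxone libraries, 2.76-fold the Drd1-like level. Eccentric-like neurons had 502 ± 27.5 CPM. The 4 spiny classes did not overlap in any library, in the order Chst9-like, eccentric-like, Drd1-like and Drd2-like.

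Outside the spiny neurons, astrocyte-like nuclei had 1318, 1432 and 1231 CPM in the saline libraries and 1477, 1258 and 1349 CPM in the naloxone libraries. Cholinergic-like interneurons, at 1325 ± 163 CPM, did not differ from them beyond the SD. Along the oligodendrocyte lineage Adcy2 stood at 656 ± 31.2 CPM in OPC-like, 228 ± 64.8 in committed precursor-like and 27.3 ± 7.21 in oligodendrocyte-like nuclei. OPC-like nuclei exceeded oligodendrocyte-like nuclei 24.0-fold in 6 of 6 libraries (exact p = 0.0313), the opposite direction to Adcy5.

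Adcy7, the other isoform of this kind, was measured mainly in microglia-like nuclei, with 39.8, 31.6 and 44.0 CPM in the saline libraries and 45.5, 66.3 and 33.7 CPM in the naloxone libraries, and in cholinergic-like interneurons, with 21.6 ± 5.91 CPM. Somatostatin-like neurons had 11.3 ± 3.67 and Pthlh Pvalb-like neurons 7.27 ± 1.82 CPM. The 4 spiny classes averaged at most 0.524 CPM, and the 7965 Drd1-like nuclei gave 18 Adcy7 UMIs in all. With gated nuclei Adcy7 stood higher, at 2.58 CPM in Drd1-like, 2.79 in eccentric-like, 2.13 in Chst9-like and 0.511 in Drd2-like neurons, and the excess of somatostatin-like over Drd1-like neurons was no longer called (adjusted exact p = 0.348). After thinning, 4.19% ± 0.808 of microglia-like and 2.08% ± 0.578 of cholinergic-like nuclei had an Adcy7 UMI, against 0.0240% ± 0.0166 of Drd1-like nuclei. Without thinning the first pair of shares was 5.67% and 25.5%, at median depths of 1267 and 12507 UMIs. Thinning left out 488 of 1536 microglia-like nuclei, which had fewer than 1000 UMIs.

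The calcium-stimulated isoforms marked other cells. Adcy8 was highest in Pthlh Pvalb-like interneurons, with 512, 483 and 499.7 CPM in the saline libraries and 474, 484 and 544 CPM in the naloxone libraries. It was scarce in the main spiny classes, on average 5.80 ± 1.75 CPM in Drd1-like and 1.27 ± 0.320 CPM in Drd2-like neurons, where 454 and 55 UMIs gave a 4.58-fold difference in 6 of 6 libraries. With gated nuclei these levels were 27.4 and 6.32 CPM (4.33-fold). Chst9-like neurons had 44.2 ± 4.05 CPM, 7.62-fold the Drd1-like level, or 1.95-fold with gated nuclei and 3.47-fold at the coarser clustering.

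Astrocyte-like nuclei had 201 ± 48.5 CPM of Adcy8, unevenly spread over their 2 clusters. The cluster led by Lama2 (1203 nuclei) had 467 to 619 CPM and the cluster led by Slc1a2 (3385 nuclei) 47.8 to 104 CPM, a 7.81-fold ratio of means. These clusters were singled out after their values were seen, so no test is given. Adcy2 differed less between them, with 1707 ± 217 and 1212 ± 83.8 CPM.

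Adcy1 was also highest in Pthlh Pvalb-like neurons, at 144 ± 21.1 CPM against 17.0 ± 1.66 in Drd1-like neurons (8.48-fold, higher in 6 of 6 libraries, where 7 of the 8 genes were called beside 49.4% of all genes). OPC-like nuclei followed with 39.1 ± 5.59 CPM and exceeded oligodendrocyte-like nuclei (3.77 ± 1.80 CPM) in 6 of 6 libraries. Cholinergic-like neurons (32.4 ± 15.8 CPM) did not differ from OPC-like nuclei beyond the larger SD, nor did somatostatin-like neurons (27.8 ± 10.3 CPM) from cholinergic-like neurons. Drd1-like neurons had 1.46-fold the level of Drd2-like neurons (11.7 ± 1.98 CPM).

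Adcy3, best known from olfactory neurons and primary cilia, was present in every neuron class. The 7 neuron classes lay between 19.2 and 36.3 CPM, and no neighbours in that order differed beyond the larger SD. Drd1-like neurons (27.0 ± 0.907 CPM) were 4.04-fold above astrocyte-like and 4.95-fold above oligodendrocyte-like nuclei, in comparisons where 7 of the 8 genes were called beside 72.7% and 77.0% of all genes. Their step over Drd2-like neurons (24.4 ± 1.62 CPM, 1.11-fold) was lost after thinning (adjusted exact p = 0.0833) and with gated nuclei (0.447). The step over Chst9-like neurons, which had 90.3% of the Drd1-like level, was called. It was lost after thinning (adjusted exact p = 0.195), with gated nuclei (0.116) and at the coarser clustering (0.596). After thinning, 3.64% of somatostatin-like and 2.63% of Drd1-like nuclei had an Adcy3 UMI (6 of 6 libraries, adjusted exact p = 0.0435). In CPM that pair was not called.

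Adcy9 was present in every class at 51.9 CPM or more. Microglia-like nuclei had 373, 383 and 433 CPM in the saline libraries and 309.6, 395 and 359 CPM in the naloxone libraries. Eccentric-like neurons had 345 ± 14.5 CPM, not below microglia-like nuclei beyond the SD. Drd1-like (216 ± 21.2), Drd2-like (229 ± 21.2) and Chst9-like neurons (223 ± 12.6 CPM) overlapped. Within libraries, Drd2-like neurons were 1.06-fold above Drd1-like neurons in 6 of 6 (exact p = 0.0313, adjusted 0.0417). With another seed for the clustering, tried after the data were seen, the difference was lost (adjusted exact p = 0.353). After thinning, 19.2% ± 1.45 of Drd2-like and 18.2% ± 1.63 of Drd1-like nuclei had an Adcy9 UMI (adjusted exact p = 0.0435). Microglia-like nuclei exceeded astrocyte-like nuclei (72.8 ± 5.56 CPM) 5.15-fold in 6 of 6 libraries, with 5 of the 8 genes called beside 46.7% of all genes.

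The mix was taken as each gene's share of the summed UMIs of the 8. Drd1-like neurons had 1109 ± 31.7 CPM in sum, with 52.8% ± 0.845 Adcy5, 23.0% ± 1.52 Adcy2 and 19.5% ± 1.45 Adcy9. Drd2-like neurons had 823 ± 36.2 CPM, with 65.7% ± 1.10 Adcy5, 27.8% ± 1.38 Adcy9 and 1.80% ± 0.553 Adcy2. Chst9-like neurons had 58.2% ± 1.64 Adcy2, 18.4% ± 1.01 Adcy9 and 16.2% ± 0.660 Adcy5, and eccentric-like neurons held Adcy2 (36.0% ± 2.13) and Adcy5 (35.8% ± 2.11) in nearly equal parts. Cholinergic-like interneurons had the highest sum, 1769.9 ± 132 CPM with 74.7% Adcy2, and oligodendrocyte-like nuclei the lowest, 334 ± 20.2 CPM with 48.9% Adcy5 and 33.8% Adcy9. Adcy2 made up 79.2% in astrocyte-like and 68.2% in OPC-like nuclei, Adcy8 41.6% in Pthlh Pvalb-like neurons and Adcy9 73.6% in microglia-like nuclei.

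**Figure D4:**
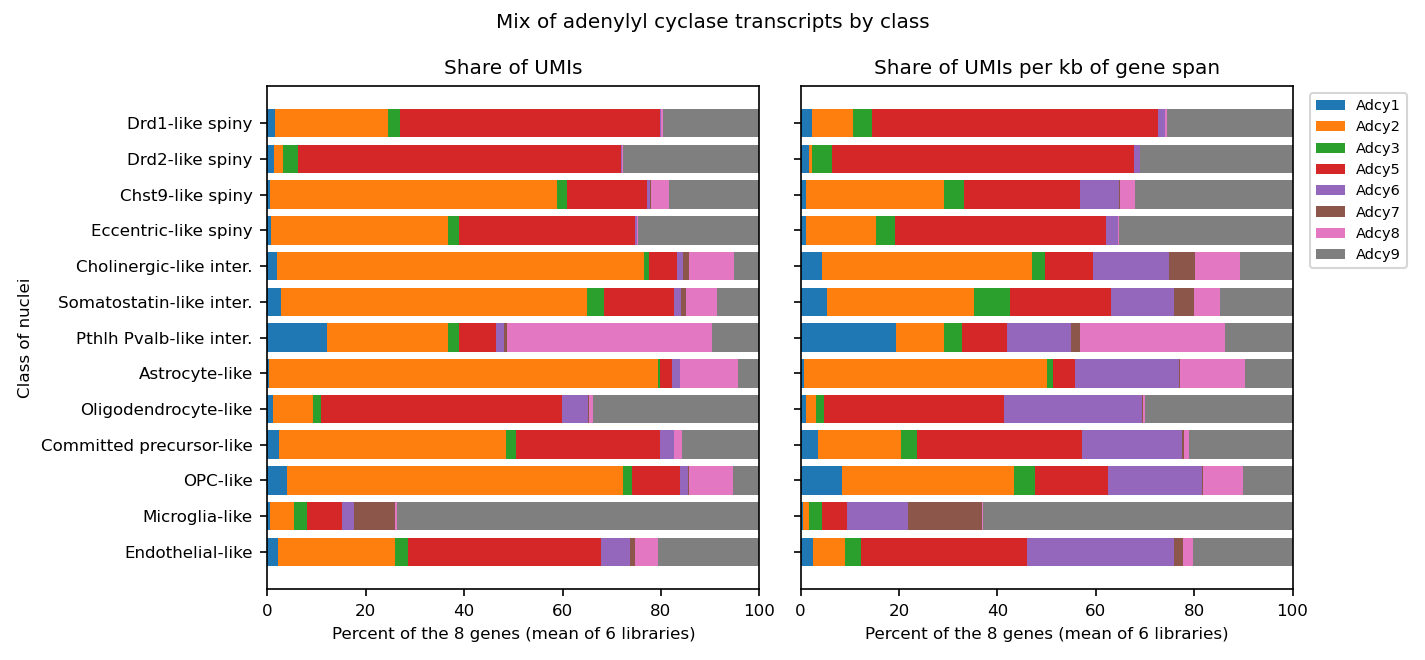
Share of each of the 8 genes in their summed UMIs by class (left) and in their summed UMIs per kb of gene span (right), as means of 6 libraries. Adcy5 leads in Drd1-like neurons on both scales (52.8% and 58.3%), while Adcy6, with the shortest span, takes a larger part of the glial bars on the right.

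Nuclear RNA is rich in introns, so a long gene can give more UMIs, and levels of different genes were compared per kb of RefSeq gene span, from 21.1 kb for Adcy6 to 447 kb for Adcy2. Per kb, Adcy5 led in Drd1-like (58.3%) and Drd2-like neurons (61.5%) and in oligodendrocyte-like nuclei (36.6%). Adcy2 led in astrocyte-like (49.4%), cholinergic-like (42.8%), somatostatin-like (29.8%) and OPC-like nuclei (34.9%), Adcy8 in Pthlh Pvalb-like neurons (29.4%) and Adcy9 in microglia-like nuclei (63.0%). The leader changed in Chst9-like neurons, to Adcy9 (32.0%) before Adcy2 (27.9%), in eccentric-like neurons, to Adcy5 (42.9%) before Adcy2 (14.2%), and in committed precursor-like nuclei, to Adcy5 (33.4%). Adcy6 made up 28.1% in oligodendrocyte-like and 21.2% in astrocyte-like nuclei on this scale. For endothelial-like nuclei, led by Adcy5 in UMIs, no leader per kb is named. There Adcy5 (span 146 kb) held 38.6% of the UMIs in saline and 39.7% in naloxone libraries. Adcy6 (21.1 kb) held 6.21% and 5.59%.

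The genes whose profile over the 13 classes was most like each member's were found by Pearson r of log2 mean CPM plus 1 among 12488 genes. Named genes among the 3 nearest were Camta1 (0.88), Zpbp (0.88) and Dop1a (0.87) for Adcy1, Ddah1 (0.87), Grk3 (0.86) and Asb3 (0.86) for Adcy2, Sms (0.97) and Ero1b (0.95) for Adcy3 and Ptchd1 (0.94) and Ttc32 (0.93) for Adcy5. They were Cdan1 (0.94) and Zfp771 (0.93) for Adcy6, Mcub (0.96) and Mtmr9 (0.93) for Adcy7, Lrrc9 (0.92) and Dner (0.91) for Adcy8 and Rbm33 (0.92), Cmya5 (0.92) and Icam5 (0.90) for Adcy9. The classes share libraries and differ in depth, and these values are descriptions.

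Naloxone was not followed by a called change of any of the 8 genes after 1 hour. UMIs summed by library and class were compared by edgeR's quasi-likelihood F-test with Benjamini-Hochberg adjustment over all genes of a class. Of 104 pairs of gene and class, 75 passed the filter on low counts and 0 were called, with 4 unadjusted p under 0.05 and a lowest adjusted p of 0.224. DESeq2 called 0 of the 73 pairs with an adjusted p, and 4 of its 104 unadjusted p lay under 0.05. Over the same classes 405 of 118119 tests of all genes were called (0.343%), so 0 of 75 is near the background. The median log2 change of the 75 was -0.01, with 37 above and 38 below 0, and class medians of all genes lay between 0.00 and 0.02.

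For Adcy5, whose values by library are given above, the saline and naloxone libraries overlapped in all 4 spiny classes. The log2 change (naloxone over saline) in Drd1-like neurons was 0.03 (SE 0.07), with a 95% interval of -0.12 to 0.17, or 0.923 to 1.12-fold. In Drd2-like neurons it was 0.06 (-0.09 to 0.21), in Chst9-like neurons 0.02 (-0.14 to 0.18) and in eccentric-like neurons 0.10 (-0.09 to 0.28). In oligodendrocyte-like nuclei it was 0.19 (-0.06 to 0.44). A cluster within that class, led by Gpd1, held 98 nuclei of saline and 2763 of naloxone libraries, and its part in the value was not tested.

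The lowest adjusted p was that of Adcy2 in Drd2-like neurons, the spiny class in which it was scarce. Its libraries, given above, overlapped between the groups, and the log2 change was -0.58 (SE 0.20, interval -1.0 to -0.16, edgeR adjusted p = 0.224). With gated nuclei it was 0.31. Without the filter on low counts edgeR called it (adjusted p = 0.0179), when calls over all genes and classes went from 405 to 2215.

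In astrocyte-like nuclei Adcy8 had 184, 125 and 207 CPM in the saline libraries and 248, 184 and 257 CPM in the naloxone libraries, with 1 naloxone library inside the saline range. The log2 change was 0.47 (SE 0.17, interval 0.11 to 0.82, edgeR adjusted p = 0.278). It was called without the filter on low counts (adjusted p = 0.00469) and without naloxone library 5 (log2 change 0.62, edgeR adjusted p = 0.0480). The cluster led by Lama2, with the higher Adcy8 level, made up 17.2% to 27.7% of astrocyte-like nuclei in the saline and 29.1% to 35.1% in the naloxone libraries. Within it the log2 change of Adcy8 was -0.07 (-0.34 to 0.21, edgeR adjusted p = 0.942), and within the cluster led by Slc1a2 it was 0.69 (0.25 to 1.13, edgeR adjusted p = 0.209).

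The saline and naloxone libraries did not overlap in 4 of the 75 pairs. In committed precursor-like nuclei Adcy5 had 159, 234 and 224 CPM in the saline libraries and 124, 126 and 41.4 CPM in the naloxone libraries, on 323 UMIs in all (log2 change -1.01, SE 0.32, edgeR adjusted p = 0.227; 0.0129 without the filter on low counts). Neuronal RNA moved with it: the 6 general neuron markers summed to 1786 to 2768 CPM in the saline and 479 to 1712 CPM in the naloxone libraries of that class, with all of them lower on average and 0 at 0. The part of that RNA in the Adcy5 value was not tested. Adcy9 in the same class had a log2 change of -0.51 (SE 0.26, edgeR adjusted p = 0.442), which turned to 0.30 at the coarser clustering. The other two pairs were Adcy5 in Pthlh Pvalb-like neurons (log2 change -0.25, SE 0.13, edgeR adjusted p = 0.671) and Adcy1 in somatostatin-like neurons (-0.59, SE 0.34, edgeR adjusted p = 0.796). The same separation was found for 18.8% of all genes tested in committed precursor-like nuclei, 13.7% in Pthlh Pvalb-like and 11.9% in somatostatin-like neurons. These are only the classes in which a member separated. The share of all genes over the 13 classes is not given, so the 4 of 75 pairs are not read as a result.

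Adcy8 in Drd1-like neurons had 4.64, 5.02 and 4.59 CPM in the saline libraries and 7.52, 8.52 and 4.53 CPM in the naloxone libraries, with the groups overlapping (log2 change 0.51, SE 0.21, edgeR adjusted p = 0.324).

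**Figure D5:**
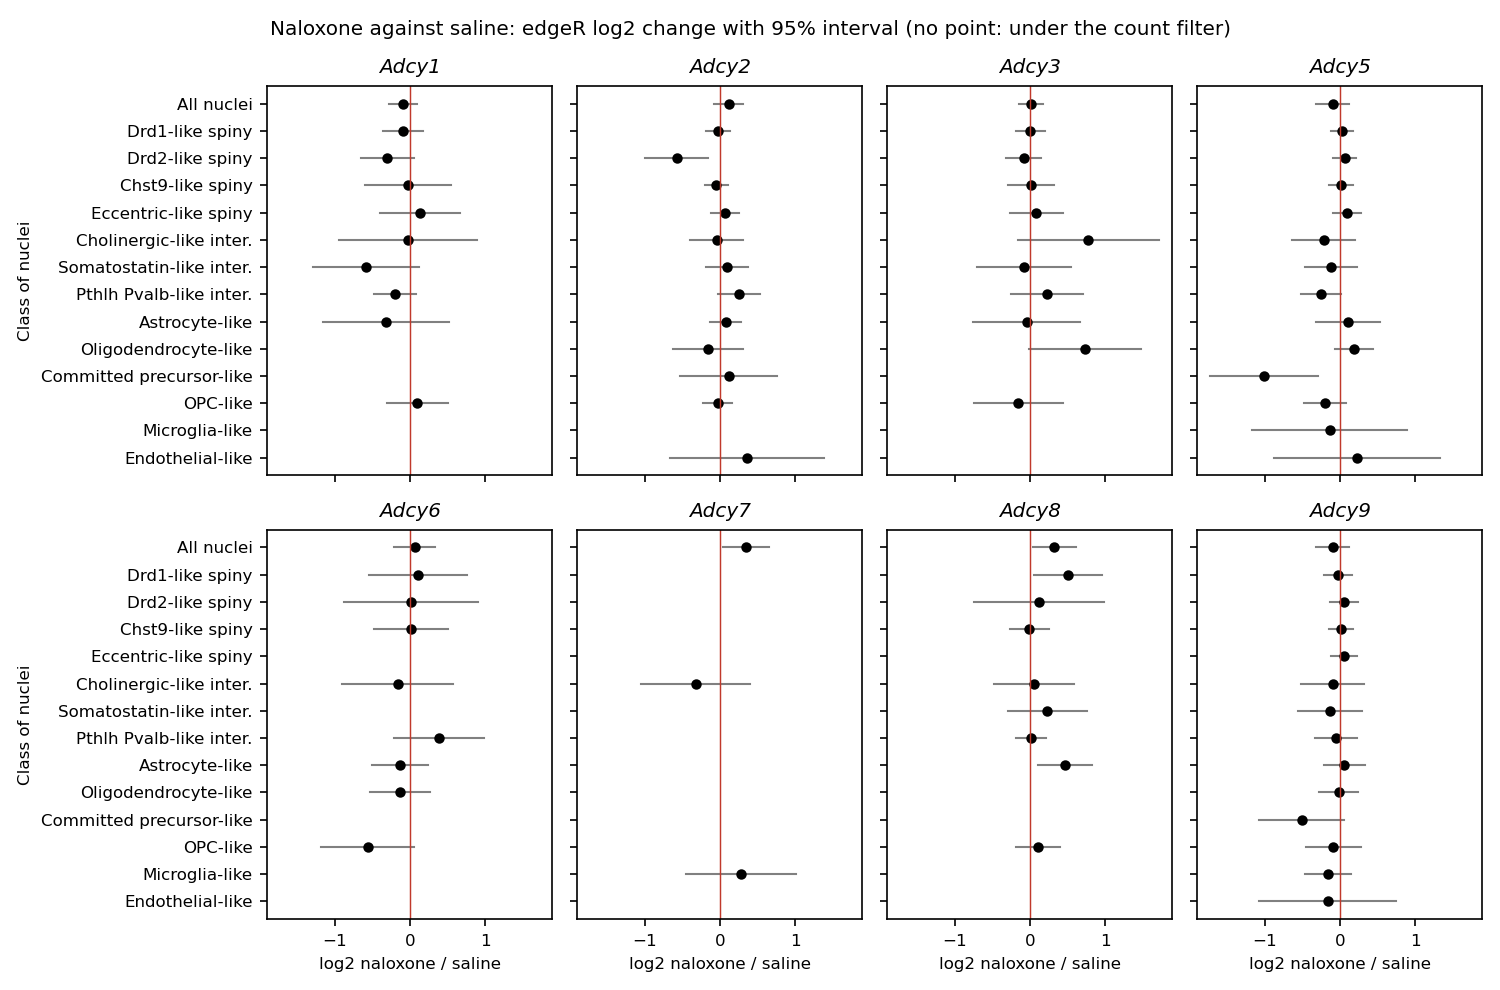
Log2 change of each gene with naloxone over saline (edgeR; lines are 95% intervals) in all nuclei and in the 13 classes; a class has no point where the gene was under the filter on low counts. Adcy5 lies between -1.01 in committed precursor-like and 0.23 in endothelial-like nuclei, and no gene passed the adjusted threshold in any class.

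Of the other genes in classes where they were high, Adcy8 in astrocyte-like nuclei (given above) had an interval above 0, and the following intervals spanned 0. The log2 change of Adcy2 was 0.07 (-0.13 to 0.28) in astrocyte-like nuclei, -0.05 (-0.20 to 0.10) in Chst9-like neurons and -0.03 (-0.22 to 0.17) in OPC-like nuclei. That of Adcy8 in Pthlh Pvalb-like neurons was 0.01 (-0.19 to 0.22). In microglia-like nuclei Adcy9 had -0.16 (-0.47 to 0.15) and Adcy7 0.27 (-0.46 to 1.01).

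Over all nuclei edgeR called 0 of the 8 genes with 2 unadjusted p under 0.05, and DESeq2 called 0, also with 2, beside 0.0346% of all genes called by edgeR. Adcy8 had 54.5, 54.2 and 60.4 CPM in the saline libraries and 79.5, 56.0 and 76.3 CPM in the naloxone libraries (log2 change 0.32, SE 0.13, edgeR adjusted p = 0.313). Naloxone library 5 lay inside the saline range, and without it Adcy8 was called (log2 change 0.47, edgeR adjusted p = 0.0167). Adcy7 had a log2 change of 0.35 (SE 0.14, edgeR adjusted p = 0.310). In such sums more nuclei of a type and more RNA per nucleus cannot be told apart. Drd2-like nuclei made up 8.37% to 9.30% of the saline and 6.12% to 9.08% of the naloxone libraries, and astrocyte-like nuclei 7.22% to 8.42% and 7.11% to 8.18%. Microglia-like nuclei, the class with the most Adcy7, made up 1.84% to 3.04% of the saline and 2.34% to 4.05% of the naloxone libraries.

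Whether the effect of naloxone differed between classes was tested by a class by treatment term, for Drd1-like neurons against Drd2-like, Chst9-like, astrocyte-like and oligodendrocyte-like nuclei. Of 28 terms edgeR called 0, with 3 unadjusted p under 0.05. DESeq2 called 0 of the 25 terms with an adjusted p, and 1 of its 32 unadjusted p lay under 0.05. The shares of all genes called by edgeR were 0.981%, 0.13%, 0.254% and 0.383%. The lowest adjusted p was that of Adcy2, whose log2 change in Drd2-like less that in Drd1-like neurons was -0.56 (SE 0.15, edgeR adjusted p = 0.0587). It passed the threshold without saline library 1 (adjusted p = 0.0481), saline library 3 (0.0179) or naloxone library 4 (0.0132), and turned to 0.22 with gated nuclei. For Adcy8 in Chst9-like less Drd1-like neurons it was -0.50 (SE 0.23, edgeR adjusted p = 0.666). Of 104 shares in the mix compared between 3 and 3 libraries by a two-sided exact permutation test, 6 (5.77%) reached 0.1, the smallest p this design allows. The widest gap was in committed precursor-like nuclei, where the mean share of Adcy2 was 38.4% in saline and 53.9% in naloxone libraries and that of Adcy5 36.3% and 22.1% (exact p = 0.1 each), beside the neuronal RNA described above for that class. In Drd1-like neurons the share of Adcy5 was 52.4% and 53.2% (exact p = 0.2), and in Drd2-like neurons 65.1% and 66.2% (exact p = 0.4).

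In the rest of the pathway 1 change was called in the 13 classes, a rise of Oprm1, the mu opioid receptor gene, in Drd2-like neurons. The list held 28 genes of cyclic AMP signalling (G protein subunits, protein kinase A subunits, phosphodiesterases, cyclic AMP-responsive factors and the receptors Drd1, Drd2, Adora2a and Oprm1; Gnas has 2 rows in the tables) and gave 328 tests over the 13 classes. By edgeR 1 rose and 0 fell, with 40 unadjusted p under 0.05, and the median log2 change of the list was -0.03. For such counts of unadjusted p the share over all genes is not given, so no shift of the list is read from them. Oprm1 in Drd2-like neurons had 30.7, 25.1 and 21.2 CPM in the saline libraries and 33.5, 49.2 and 50.1 CPM in the naloxone libraries. The log2 change was 0.82 (SE 0.16, edgeR adjusted p = 0.0322), in a class where 0.532% of all genes were called. The call was lost without saline library 2 (edgeR adjusted p = 0.144), saline library 3 (0.216), naloxone library 5 (0.0702) or naloxone library 6 (0.107). With gated nuclei the log2 change was 0.39 (edgeR adjusted p = 0.719). Oprm1 was itself a marker of the Chst9-like gate, so Drd2-like nuclei with Oprm1 UMIs could fail the gate. The gated value is therefore no independent check of Oprm1. Outside these classes Gnb1, a G protein beta subunit, rose in the unnamed cluster led by Itga11 (log2 change 0.67, SE 0.16, edgeR adjusted p = 0.0201), where 2.82% of all genes were called.

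DESeq2 called 4 of the 307 tests of the list with an adjusted p, all in Drd2-like neurons. Of its 377 unadjusted p, 30 lay under 0.05. Over all genes and the 13 classes DESeq2 called 619 of 230049 tests with an unadjusted p. That total, like the 377, includes tests left without an adjusted p, so it is not the background of the 307. The DESeq2 share of all genes in Drd2-like neurons alone or over all nuclei is not given. Beside Oprm1 the list genes called in Drd2-like neurons were Gnas, the stimulatory G protein subunit (log2 change 0.53, DESeq2 adjusted p = 0.0316), Gng7, a gamma subunit that works with Adcy5 in the striatum (-0.27, adjusted p = 0.0479), and Pde1b, a calcium-dependent phosphodiesterase (-0.27, adjusted p = 0.0481). Over all nuclei edgeR called 0 of 29 rows, with 11 unadjusted p under 0.05, and DESeq2 called 3, both rows of Gnas (log2 change 0.47 and 0.35) and Pde1b (-0.38). The share of all genes with an unadjusted p under 0.05 over all nuclei is not given either. Without naloxone library 5 edgeR called 5 rows over all nuclei, Adora2a (log2 change -0.69), Ppp1r1b (-0.54), Pde1b (-0.46), Akap5 (-0.35) and 1 row of Gnas (0.39), when calls over all genes went from 6 to 254. Drd2-like nuclei made up 6.12% and 6.46% of naloxone libraries 4 and 6 and 9.08% of library 5, against 8.37% to 9.30% of the saline libraries. In sums over all nuclei, fewer nuclei of a type and less RNA per nucleus cannot be told apart.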

How the data were processed

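Single-nucleus libraries (10x Genomics 3' chemistry) were processed with Cell Ranger 9.0.1 on mRatBN7.2, per the submitters' processing notes, which also name Seurat 5.2.1. The deposited values are UMI counts per gene and barcode. Barcodes were kept from 500 genes upward where no more than 5% of UMIs were mitochondrial (61609), and 2649 doublets (4.30%), called by the Scrublet calculation, were removed. Nuclei were clustered without the 8 genes (scanpy 1.11.5; 3000 variable genes, 40 principal components, 15 exact neighbours, Leiden resolution 1.0), and clusters were named from marker lists. The score a neuron cluster needed, 0.4, was lowered from 0.5 after clusters and earlier results were seen, which brought 2 clusters of 5711 nuclei into the Drd1-like class; 0.5 was kept as an alternative. The members and lists were chosen with earlier results of these data known. Counts summed by library and class were tested with edgeR 4.0.16 (TMM, filterByExpr at 10 counts, adjusted p under 0.05), with DESeq2 1.42.0 as an alternative. Scripts were tested on simulated data. All 8 members are named in every class, pathway genes only where called, and the 3 most alike genes per member, of which those without a gene name are left out and 1 other is not reported here. The alternatives were other normalization, no filter, each library left out, coarser clusters, another clustering seed and the 0.5 score (the seed and the score were added after the data were seen), doublets kept, at least 1000 genes per nucleus, nuclei gated one by one, thinning and gene span. Promoter sequences are from RefSeq.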

Additional observations from a re-analysis of the deposited data

Results flagged for a closer look

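The effect of naloxone on 2 genes of the cyclic AMP pathway list differed between Drd2-like and Drd1-like neurons by a test of the class by treatment term. In that comparison edgeR called 130 of 13247 genes (0.981%). The log2 change in Drd2-like less that in Drd1-like neurons was 0.72 for Oprm1, the mu opioid receptor gene (SE 0.12, edgeR adjusted p = 0.00094). It was -0.18 for Gng7, a G protein gamma subunit (SE 0.04, edgeR adjusted p = 0.0379). With gated nuclei the differences were 0.19 and -0.07 and were not called. Oprm1 was a marker of the Chst9-like gate, so its gated value is no independent check. That of Gng7 was also not called by DESeq2 (adjusted p = 0.281), at resolution 0.5 (0.0554), at the naming score of 0.5 (0.185) or without saline library 1 (0.115), 2 (0.131) or 3 (0.108) or naloxone library 5 (0.192) or 6 (0.110). None of the 8 cyclase genes passed this test in the 4 pairs of classes tried.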

How the results depend on the processing

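No paired analysis was possible because the saline and naloxone libraries share no replicate numbers. Without the filter on low counts, naloxone calls among the members by class went from 0 to 3 (Adcy2 in Drd2-like neurons, Adcy8 in astrocyte-like and Adcy5 in committed precursor-like nuclei) and in the pathway list from 1 to 10. DESeq2 made 4 pathway calls and gated nuclei, for which Oprm1 was a marker, gave 0. Leaving out 1 library gave 0 to 1 member calls by class and over all nuclei (1 without naloxone library 5, Adcy8 both times), 0 to 1 pathway calls by class and 0 to 1 class by treatment calls. That last call, Adcy2 in Drd2-like less Drd1-like neurons, was also 1 without the filter, with doublets kept, at resolution 0.5 and with another clustering seed. The Adcy5 share in Drd1-like neurons, 52.8% as reported, was 51.3% at resolution 0.5, 56.7% at the naming score of 0.5, 46.4% with gated nuclei and 58.3% per gene span. The sign of log2 changes that were not called turned for Adcy2 in Drd2-like neurons (0.31, gated) and in its difference from Drd1-like neurons (0.22, gated), Adcy5 in Drd1-like neurons (-0.0439 gated, -0.00765 without naloxone library 6, -0.00765 to 0.0592 over the libraries left out), Adcy2 in Chst9-like neurons (0.0175, resolution 0.5) and Adcy9 in committed precursor-like nuclei (0.30, resolution 0.5). Adcy5 between Drd1-like and Drd2-like neurons turned to -38.4 CPM, gated. The cause was not tested. Of 492 values of 72 class differences under alternatives that keep 6 libraries, 473 kept direction and side of the threshold, 18 lost it and 1 reversed. With 5 libraries the smallest exact p is 0.0625, so no class difference could be called. The 72 differences had the same sign in all 6 libraries, so leaving out 1 library could not turn their direction. Nor can leaving out 1 of 6 values move a mean by 1 SD. That all 432 such values kept their direction and stayed within 1 SD is therefore no test. Calls over all genes and classes were 405, against 619 by DESeq2, 2215 without the filter, 135, 192 and 121 without saline library 1, 2 or 3, and 170 with gated nuclei in 10 classes. Shallow or small classes limit what could be seen: 3 of the 8 genes passed the filter in microglia-like, endothelial-like and committed precursor-like nuclei. The last of these were few (361) but not shallow (median 4133 UMIs).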

Other observations

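In 15 unnamed clusters (14234 nuclei) edgeR called 0 of 85 member tests, with 6 unadjusted p under 0.05 and a lowest adjusted p of 0.377. The cluster led by Adamtsl1 (1971 nuclei) had 534 ± 33.3 CPM of Adcy5 and 178 ± 43.8 CPM of Adcy2, and the cluster led by Itga11 (425 nuclei) 432 ± 27.0 and 75.3 ± 32.8 CPM. Adcy4, a cyclase gene outside the 8, had 34.5 ± 8.52 CPM in endothelial-like (37 UMIs) and 18.3 ± 3.19 CPM in microglia-like nuclei (42 UMIs), and at most 0.176 CPM in the other 11 classes. These genes and clusters were singled out after their values were seen.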
